A study of Mus musculus with 4 samples.

Results

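The genes described here are 10 endothelial and vascular genes of the mouse, chosen by name from a list, out of 21951 protein-coding genes in the annotation. They are the receptor genes Kdr, Flt1, Tek and Tie1, the ligand gene Vegfa, the adhesion genes Cdh5 and Pecam1, and the transcription factor genes Erg, Fli1 and Sox18. They were examined in 4 PRO-seq libraries from embryos at embryonic stage E14.5, of which 2 came from liver and 2 from yolk sac, each made from tissue pooled from 6 embryos. C57BL/6J mothers were crossed to fathers that had a mixed C57BL/6J and CAST/EiJ background that carried CAST/EiJ alleles of the Dlk1/Gtl2 region (chromosome 12), so both tissues share this cross. No allele-resolved values were analysed here. PRO-seq, a nuclear run-on method, locates RNA polymerases engaged in transcription, and the deposited lists hold the regions that dREG, a classifier of transcription initiation regions, called in each library. A peak in such a list marks a place where transcription starts, at a promoter or at a distal site such as an enhancer.

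Endothelial cells line blood vessels. The secreted growth factor encoded by Vegfa binds the receptor tyrosine kinases encoded by Kdr, the main signalling receptor, and Flt1, which binds the ligand tightly and can hold it away from Kdr. Tek encodes the angiopoietin receptor and Tie1 its partner receptor, Cdh5 and Pecam1 encode cell-cell adhesion proteins of the vessel wall, and Erg and Fli1 (of the ETS family) and Sox18 (of the SOX family) encode transcription factors of the endothelial programme. In the embryo the yolk sac is the first tissue to form blood vessels, and the liver at mid-gestation is a blood-forming organ whose vessels are sinusoids.

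The liver lists held 24863 and 24333 peaks and the yolk sac lists 50525 and 43055, and the number of reads behind them is unknown. Locus, distal and promoter counts were therefore repeated on the top 24333 peaks by score of every list, called lists of equal length here. The tissue labels were compared with promoter peaks of marker genes. All 9 erythroid markers had one in each liver list and 2 and 2 in the yolk sac lists, and the 10 yolk sac endoderm markers had 8 and 7 in the liver lists against 10 and 10 in the yolk sac lists. Of 10 hepatic markers 7 and 6 were called in liver against 6 and 6 in yolk sac, and in lists of equal length 7 and 6 against 3 and 3. For comparison, 56.1% and 57.9% of all protein-coding genes were called in liver against 63.8% and 62.4% in yolk sac. With lists of equal length these shares were 55.9% and 57.9% against 53.2% and 56.6%. In these bulk tissues a smaller share of endothelial cells and less transcription per cell cannot be told apart. Nothing in the labels says that the pools shared no litter, so the spread between replicates may be technical. With 2 libraries against 2, an exact two-sided permutation test cannot give a p below 0.33, and no difference between the tissues could pass a threshold. The 5 tests between tissues with all peaks (genes with a promoter peak, locus peaks, distal peaks, promoter width and percentile) gave p = 0.33, also after Benjamini-Hochberg adjustment over the 5 (exact permutation), and each difference is given beside the replicate spread instead.

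The sequences just upstream of 6 start sites are shown because the calls at them are absent from at least 1 liver library (Tek, both Erg starts), are shared but differ in width (Kdr, Flt1) or are alike in both (Vegfa). They are RefSeq sequences of GRCm38.p6, and 6 of the 10 genes were found in the table they come from. Each runs 5′ to 3′ on the strand of the gene and ends at the base before the annotated start. The number of bases inside a peak was 250 (Kdr 247) in every library at Kdr, Flt1 and Vegfa. At Tek and the upstream Erg start it was 0 in both liver libraries and 250 in both yolk sac libraries, and at the internal Erg start 54 and 0 in liver against 250 and 98 in yolk sac. Capitals mark letters searched on both strands: AGGAAG and CCGGAA, core letters of ETS factor sites, ACAAAG and ACAATG, core letters of SOX sites, and AGATAA, core letters of GATA sites.
Kdr, chr5:75978459-75978705, minus strand: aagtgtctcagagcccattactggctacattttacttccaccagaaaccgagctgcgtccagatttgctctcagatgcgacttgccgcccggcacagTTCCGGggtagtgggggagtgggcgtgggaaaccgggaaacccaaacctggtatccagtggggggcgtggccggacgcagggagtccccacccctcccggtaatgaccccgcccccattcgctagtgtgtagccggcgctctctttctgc
Flt1, chr5:147726012-147726261, minus strand: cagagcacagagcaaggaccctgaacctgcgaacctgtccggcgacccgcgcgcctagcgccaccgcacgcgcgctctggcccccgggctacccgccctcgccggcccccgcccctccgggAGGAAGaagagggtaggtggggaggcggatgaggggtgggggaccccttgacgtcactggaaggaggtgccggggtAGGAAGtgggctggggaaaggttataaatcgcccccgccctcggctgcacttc
Tek, chr4:94739039-94739288, plus strand: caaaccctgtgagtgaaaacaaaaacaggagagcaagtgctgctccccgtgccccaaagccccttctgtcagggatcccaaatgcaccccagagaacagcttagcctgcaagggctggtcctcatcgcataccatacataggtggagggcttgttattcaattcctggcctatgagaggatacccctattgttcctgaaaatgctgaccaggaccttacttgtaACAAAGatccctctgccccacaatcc
Vegfa, chr17:46032378-46032627, minus strand: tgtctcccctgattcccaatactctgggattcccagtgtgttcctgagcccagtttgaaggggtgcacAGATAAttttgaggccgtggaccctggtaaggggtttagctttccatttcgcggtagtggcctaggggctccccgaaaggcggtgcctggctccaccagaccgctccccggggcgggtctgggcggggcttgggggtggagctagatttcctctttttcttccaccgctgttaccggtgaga
Erg, most upstream start, chr16:95586594-95586843, minus strand: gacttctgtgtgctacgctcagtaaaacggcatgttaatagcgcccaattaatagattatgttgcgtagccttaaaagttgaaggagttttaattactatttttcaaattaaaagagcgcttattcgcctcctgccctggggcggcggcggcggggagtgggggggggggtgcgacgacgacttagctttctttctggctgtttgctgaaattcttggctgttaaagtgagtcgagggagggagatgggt
Erg, internal start, chr16:95459349-95459598, minus strand: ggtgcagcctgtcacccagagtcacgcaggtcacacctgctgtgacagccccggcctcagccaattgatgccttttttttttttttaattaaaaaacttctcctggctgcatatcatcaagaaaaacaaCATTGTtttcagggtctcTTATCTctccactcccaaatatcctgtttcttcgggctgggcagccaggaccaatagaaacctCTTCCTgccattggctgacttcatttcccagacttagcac

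The windows differ in base composition, given here over the 250 bases before the RefSeq start. The ratio of observed to expected CpG was 0.676 at Kdr, 0.744 at Flt1, 0.506 at Vegfa and 1.03 at the upstream Erg start, against a median of 0.374 over 32851 promoters of the table. It was 0.126 at Tek and 0.230 at the internal Erg start. AGGAAG was present at Flt1 (2 matches), at the internal Erg start (1 match) and in a further window at Tie1 (1 match), and in 29.5% of all promoter windows. CCGGAA was present at Kdr (1 match) and in 12.0% of all. ACAAAG was found at Tek (16.5% of all windows), ACAATG at the internal Erg start (10.7%), and AGATAA at Vegfa and at the internal Erg start (9.99%). Letters that were searched on both strands but not put in capitals were GGGCGG (GC box), TATAAA and TGANTCA. Of the printed windows, GGGCGG was found at Kdr, Flt1, Vegfa and the upstream Erg start, TATAAA at Flt1 and TGANTCA at none. Their shares of all windows were 32.7%, 12.4% and 6.75%. Windows not printed also held TATAAA at the Erg RefSeq start 95530365 and GGGCGG at the Vegfa RefSeq start 46025163. The matches in capitals do not overlap each other. A match is a description of letters only.

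Promoter peaks, defined as peaks that overlap 500 bp either side of any annotated start of the gene, were found at all 10 genes in both yolk sac libraries and at 7 and 9 of them in the liver libraries. The mean was 8 ± 1.41 genes in liver against 10 ± 0 in yolk sac (SD, n = 2). The difference of 2 genes was larger than the liver SD but no larger than the difference between the liver replicates (exact permutation p = 0.33). Of the 10 genes, 6 (Kdr, Flt1, Tie1, Vegfa, Cdh5 and Pecam1) were called in all 4 libraries, as were 53.8% of all protein-coding genes. None was called in 1 tissue only in both of its libraries, where 5.25% of all genes had calls in both yolk sac lists and neither liver list and 1.01% in the reverse. The 4 genes that lacked a call lacked it in 1 liver library each: Tek, Fli1 and Sox18 in replicate 1, and Erg in replicate 2. Over all protein-coding genes, 56.1% and 57.9% were called in the liver lists against 63.8% and 62.4% in the yolk sac lists. In lists of equal length, the members called were 7 and 9 in liver against 9 and 10 in yolk sac (exact permutation p = 0.667), the call lost being Sox18 in yolk sac replicate 1. The shares of all protein-coding genes were then 55.9% and 57.9% in liver against 53.2% and 56.6% in yolk sac.

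**Figure D1:**
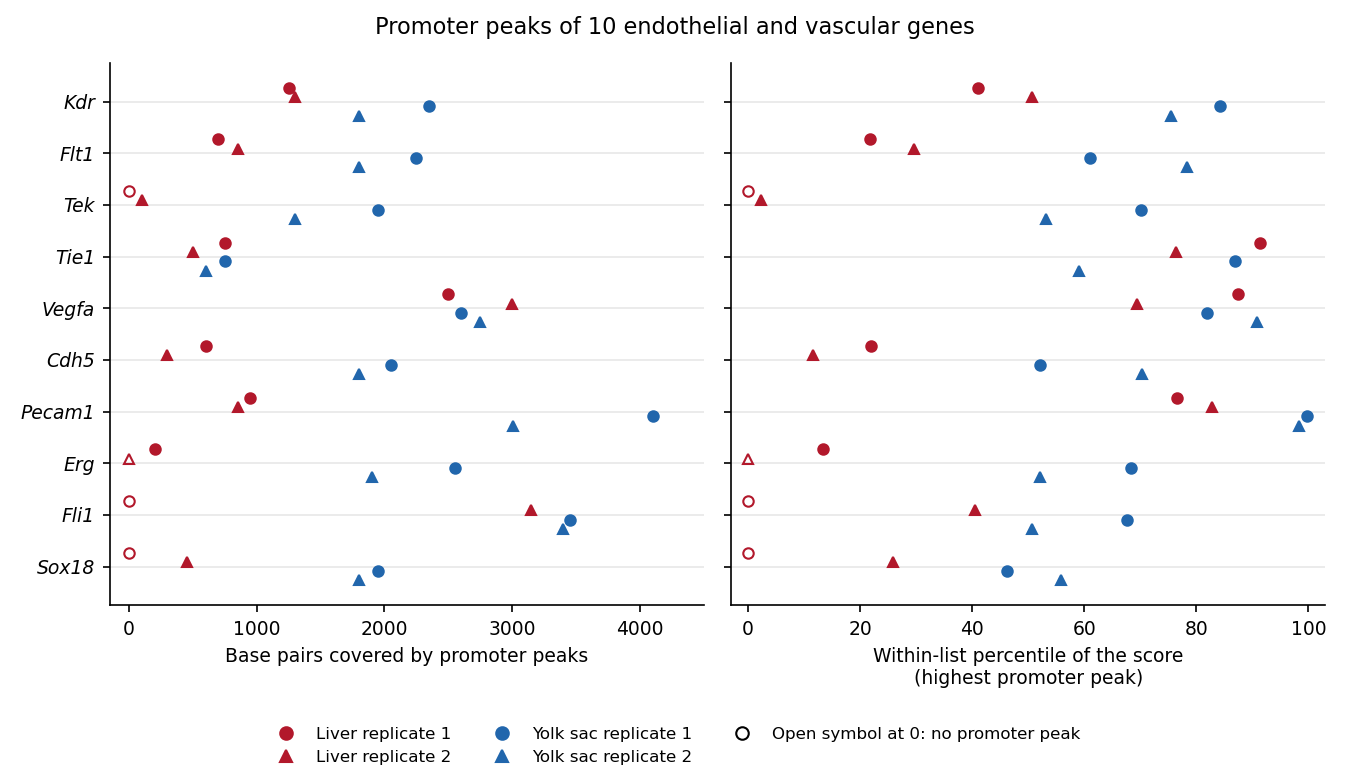
Promoter peaks of the 10 genes in each library: base pairs covered (left) and the within-list percentile of the highest-scoring promoter peak (right), 1 symbol per library, red for liver and blue for yolk sac, with open symbols at 0 where no promoter peak was called. At Tie1 and Vegfa the liver and yolk sac symbols mix, while at Kdr, Flt1, Cdh5 and Pecam1 the yolk sac peaks cover more bases in both libraries.

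The scores place these promoters differently within each list. In the higher-scoring 50% of each list, 3 and 4 of the 10 genes kept a promoter peak in liver, against 9 and 10 in yolk sac. These parts of the lists still differed in length, with 12432 and 12166 peaks in liver against 25262 and 21528 in yolk sac. Over all protein-coding genes the shares were 43.1% and 43.2% in liver against 54.6% and 53% in yolk sac. The liver genes with such a peak were Tie1, Vegfa and Pecam1 in both libraries and Kdr in replicate 2. Within-list percentiles from lists of different lengths are descriptions and show no change between tissues. For the 6 genes called throughout, the median percentile of the best promoter peak was 58.8 and 60.04 in the liver lists against 83.1 and 76.8 in the yolk sac lists, and for the 11805 protein-coding genes called throughout it was 68.5 and 68.7 in liver against 72.8 and 73.4 in yolk sac. In lists of equal length the members' median differed by 2.96 percentile points between the tissue means, against 20.5 with all peaks. Of these 6 genes, Kdr and Pecam1 then ranked higher in both yolk sac lists than in both liver lists. At Tie1 both liver lists ranked higher, and at Flt1, Vegfa and Cdh5 the tissues overlapped. Percentiles of single genes below are from the full lists unless stated.

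The promoter peaks of the genes called throughout also differed in width, taken as the bases covered by all promoter peaks of a gene, which are more than 1 at Cdh5 and Pecam1 in yolk sac. The median of the 6 genes was 852 and 852 bp in the liver lists against 2302 and 1803 bp in the yolk sac lists, a difference in means of 1200 bp (exact permutation p = 0.33). Over the 11805 genes called throughout, the medians were 1752 and 1602 bp in liver against 1902 and 1702 bp in yolk sac. The median of the vascular promoters by covered bases thus lay below that of all promoters in liver and, by a smaller distance, above it in yolk sac. With the widest single peak per gene the medians were 852 and 852 bp in liver against 2252 and 1802 bp in yolk sac, and with only starts called in all 4 libraries 852 and 852 bp against 2252 and 1477 bp. The ratio of yolk sac to liver width had a median of 2.12 over the 6 genes and 1.06 over all genes called throughout. Both yolk sac peaks were wider than both liver peaks at 4 of the 6 genes, and at 38.1% of all genes called throughout, and by the widest single peak at 4 of the 6 and at 35.6% of all. The reverse was found at none of the 6 and at 20.1% of all.

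Among the receptor genes, Kdr lies on chromosome 5 (75932827 to 75978458, minus strand) and has 1 annotated start, directly after the bases printed above. Its promoter peak was 1252 and 1302 bp wide in the liver libraries and 2352 and 1802 bp in the yolk sac libraries. It ranked at percentiles 41.1 and 50.7 of the liver lists against 84.3 and 75.4 of the yolk sac lists. The yolk sac peaks contain the liver peaks and extend farther into the gene. The locus, which here means the gene body plus 50 kb on each side with peaks placed by their midpoint, held 2 and 5 peaks in liver against 8 and 6 in yolk sac. Those values did not overlap between tissues, with yolk sac higher, as at 56.7% of protein-coding genes with a peak. The gap between the nearest libraries was smaller than the difference of 3 peaks between the liver replicates. In lists of equal length the counts were 2 and 5 in liver against 3 and 2 in yolk sac, so the order of the means turned. Kdr also had 1 of only 2 liver-only distal regions of the whole group, at chr5:76013801-76014302, 35.6 kb upstream of its start and outside annotated genes, at percentiles 3.05 and 20.9 of the liver lists. The leading yolk-sac-only region, chr5:75899851-75900952, lay 78.1 kb downstream of the start, beyond the 3′ end of the gene, at percentiles 60.4 and 43.0 of the yolk sac lists.

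Flt1, on the same chromosome (147561604 to 147726011, minus strand), showed a wider contrast with all peaks. Its promoter peak was 702 and 852 bp wide in liver against 2252 and 1802 bp in yolk sac, a ratio of means of 2.61 that was larger than that of 94.5% of the genes called throughout. Its percentiles were 21.7 and 29.6 in the liver lists against 61.1 and 78.2 in the yolk sac lists. In lists of equal length they were 20.0 and 29.6 in liver against 19.2 and 61.5 in yolk sac. The peak lay at the upstream starts, 147725988 and 147726011, and none of the 4 libraries had a peak at the 3 internal starts. The locus held 2 and 2 peaks in liver against 9 and 8 in yolk sac. Both yolk sac libraries thus exceeded both liver libraries, as at 56.7% of protein-coding genes with a peak. The counts in lists of equal length were 2 and 2 against 3 and 3, and the ratio of means was 1.5 in place of 4.25. Inside the gene, away from starts, liver had 0 and 0 peaks and yolk sac 4 and 3, all within introns, and in lists of equal length no library had any. The leading yolk-sac-only region was chr5:147721351-147721902, in an intron 4.4 kb downstream of the start. Upstream of the gene, chr5:147751451-147753602 and chr5:147758251-147758952 ranked at percentiles 95.5 and 83.2, and 91.5 and 75.1, of the yolk sac lists. Each was also called in 1 liver library, at percentiles 3.8 (replicate 2) and 2.4 (replicate 1).

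Tek, on chromosome 4 (94739289 to 94874976, plus strand), had the weakest liver call of the receptors. Liver replicate 1 had no promoter peak, and its nearest peak lay 124437 bp from any Tek start. Liver replicate 2 had 1 peak of 102 bp, the smallest width in any of the 4 lists, at percentile 2.34. In the yolk sac the peak was 1952 and 1302 bp wide, at percentiles 70.2 and 53.3. It covered all 250 bases of the printed window, of which the liver peak covered none. The locus held 0 and 1 peaks in liver against 4 and 2 in yolk sac, and no peak of any library lay in its 50 kb flanks. The 1 yolk-sac-only distal region, chr4:94746201-94746852, was intronic and 7.2 kb downstream of the start, at percentiles 24.5 and 8.6. In lists of equal length the Tek promoter peak was the only one left at the locus, in liver replicate 2 and both yolk sac libraries.

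Tie1, on chromosome 4 (118471191 to 118490061, minus strand), differed from the other receptor genes in that its promoter peak was of similar width in both tissues. It was 752 and 502 bp wide in liver against 752 and 602 bp in yolk sac, and in replicate 1 of each tissue it had the same borders, 118489401 to 118490152. Percentiles were 91.3 and 76.4 in the liver lists against 86.9 and 59.1 in the yolk sac lists. In lists of equal length they were 91.1 and 76.4 in liver against 72.8 and 27.7 in yolk sac. The contrast in peak number at Tie1 lay outside its promoter. The locus had 1 and 0 distal peaks in liver against 7 and 7 in yolk sac, and in lists of equal length 1 and 0 against 4 and 3. Of 8 distal regions 5 were yolk-sac-only (62.5%, against 40.3% of all distal regions). The leading one was chr4:118537151-118538802, 47.9 kb upstream and outside annotated genes, at percentiles 82.7 and 98.0. Of 10 megakaryocyte markers, 7 and 6 had promoter peaks in liver against 4 and 4 in yolk sac. The shares of all protein-coding genes with one were 56.1% and 57.9% in liver against 63.8% and 62.4% in yolk sac. The part of megakaryocytes in the liver calls at genes that they also express, such as Pecam1 and Fli1, was not tested.

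Vegfa, the ligand gene (chromosome 17, 46016993 to 46032369, minus strand), had the broadest liver promoter peaks of the 6 genes called throughout. Its peak was 2502 and 3002 bp wide in liver against 2602 and 2752 bp in yolk sac, and the groups overlapped. Percentiles were 87.4 and 69.4 in the liver lists against 81.9 and 90.8 in the yolk sac lists. The locus held 9 and 8 peaks in liver against 12 and 14 in yolk sac, and in lists of equal length 9 and 8 against 8 and 7, where the order of the means turned. Of the 15 distal regions at Vegfa, 6 were called in all 4 libraries (40%, against 8.92% of all distal regions), of 11 such regions at the 10 genes together. One of these, chr17:46027351-46028052, lay in an intron 4.7 kb downstream of the start, and 4 lay beyond the 3′ end. The leading yolk-sac-only region, chr17:45986351-45988602, lay 44.9 kb downstream of the start at percentiles 93.1 and 94.0. The liver-only region chr17:46040501-46041302, 8.5 kb upstream, ranked at percentiles 28.1 and 7.88 of the liver lists.

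The adhesion genes were called in all 4 libraries, with additional peaks in yolk sac. Cdh5 (chromosome 8, 104101625 to 104144511, plus strand) encodes VE-cadherin. At its upstream start the peak was 602 and 302 bp wide in liver against 1152 and 1052 bp in yolk sac, at percentiles 21.9 and 11.6 against 50.6 and 70.3. A second peak, at the internal start 104111307, was called in yolk sac alone, 902 and 752 bp wide at percentiles 52.0 and 60.3. Together the Cdh5 promoter peaks covered 452 ± 212 bp in liver and 1929 ± 177 bp in yolk sac (SD, n = 2), a ratio of 4.27. The locus held 1 and 1 peaks in liver against 6 and 3 in yolk sac. In lists of equal length it held 1 and 1 in liver against 1 and 2 in yolk sac, and the upstream start was then no longer called in yolk sac replicate 1, where its peak fell just below the limit at percentile 51.8. The best Cdh5 promoter peak in those lists ranked at percentiles 20.2 and 11.6 in liver against 0.374 and 47.5 in yolk sac. The 1 yolk-sac-only distal region at Cdh5, chr8:104095551-104096202, lay 5.7 kb upstream in an intron of Gm29682. It ranked at percentiles 23.8 and 24.3 of the full yolk sac lists.

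Pecam1 (chromosome 11, 106654217 to 106750628, minus strand) had the highest-ranked yolk sac promoter peak of the group. The peak at the cluster of starts between 106714946 and 106715394 was 952 and 852 bp wide in liver against 2252 and 1152 bp in yolk sac. It ranked at percentiles 76.5 and 82.8 of the liver lists against 99.8 and 98.3 of the yolk sac lists. The start at 106750628 had a peak within 500 bp in each yolk sac library and no liver library. That peak also lies at a start of the neighbouring gene Milr1, where liver replicate 2 had a peak too (percentile 18.8), so it cannot be assigned to Pecam1 alone. Both starts entered the Pecam1 width ratio of 3.94. The locus held 6 and 7 peaks in liver against 17 and 15 in yolk sac, and in lists of equal length 6 and 7 against 10 and 10. Pecam1 introns held 4 yolk-sac-only distal regions. The leading one, chr11:106657601-106658652, was near the 3′ end of the gene at percentiles 99.1 and 90.2. Farther into the gene, the intronic regions chr11:106659451-106661152 and chr11:106674401-106675952 were called in all 4 libraries. The second of these ranked at percentiles 19.5 and 40.9 of the liver lists against 94.5 and 93.0 of the yolk sac lists.

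None of the 3 transcription factor genes was called in all 4 libraries under the 500 bp limit. Erg (chromosome 16, 95359169 to 95586593, minus strand) was called at different annotated starts. The most upstream start, 95586593, had a peak of 1802 and 1602 bp in the yolk sac libraries, at percentiles 68.4 and 52.1, and none in the liver libraries. The internal starts between 95459245 and 95459348 had a peak of 202 bp in liver replicate 1 (percentile 13.4), none in liver replicate 2, and peaks of 752 and 302 bp in yolk sac (percentiles 18.3 and 8.87). The remaining 2 starts had no peak in any library. In liver replicate 2 the nearest peak lay 87858 bp from any Erg start. The locus held 1 and 0 peaks in liver against 8 and 5 in yolk sac, and in lists of equal length 1 and 0 against 4 and 2. In the latter lists its ratio of peak numbers was larger than that of 97.9% of protein-coding genes with a peak. Its 3 yolk-sac-only distal regions were all intronic, 2 in Erg itself and 1 in Gm31641, with the leading one at chr16:95376001-95377202 (percentiles 35.5 and 75.5).

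Fli1 (chromosome 9, 32422204 to 32542861, minus strand) had the broadest single promoter peaks of the group wherever it was called. It was 3152 bp wide in liver replicate 2 and 3452 and 3402 bp in yolk sac, at percentiles 40.6, 67.6 and 50.7. In lists of equal length these percentiles were 40.6, 32.8 and 12.8. Liver replicate 1 had a peak inside the gene, 743 bp from the nearest start and so just outside the 500 bp limit, and with a window of 1000 bp Fli1 was called in all 4 libraries. The start at 32542861 lay within 500 bp of a peak in yolk sac alone, and the start at 32541595 in liver replicate 2 as well. The peak of liver replicate 2 ended at 32542352, just outside the 500 bp limit of the start at 32542861. The locus held 4 and 3 peaks in liver against 17 and 11 in yolk sac, the largest difference in means of the group, at 10.5 peaks. With lists of equal length it was 4 and 3 against 5 and 5. Of 17 distal regions 8 were yolk-sac-only (47.1%, near the 40.3% of all distal regions). Of these 8, 3 lay in introns and 5 between 2.1 and 49.3 kb upstream of the start. The leading one was chr9:32562201-32563102 (percentiles 84.7 and 58.8). A further 2 distal regions beyond the 3′ end of the gene were called in all 4 libraries.

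Sox18, a short gene on chromosome 2 (181669836 to 181671640, minus strand), had a promoter peak of 452 bp in liver replicate 2 at percentile 25.8. In yolk sac the peak was 1952 and 1802 bp wide, at percentiles 46.3 and 55.9. In lists of equal length it ranked at 25.8 in liver replicate 2 and 21.9 in yolk sac replicate 2, and yolk sac replicate 1 lost it. Liver replicate 1 had 1 peak at the 3′ end of the gene, 1688 bp from the start. The locus held 4 and 4 peaks in liver against 8 and 7 in yolk sac, and in lists of equal length 3 and 4 against 4 and 4. It contains starts of Tcea2 and Rgs19, at which peaks were called in all 4 libraries. The leading yolk-sac-only region, chr2:181677051-181677752, lay 5.8 kb upstream of Sox18, and the region chr2:181675201-181676052, 4 kb upstream, was called in all 4 libraries.

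**Figure D2:**
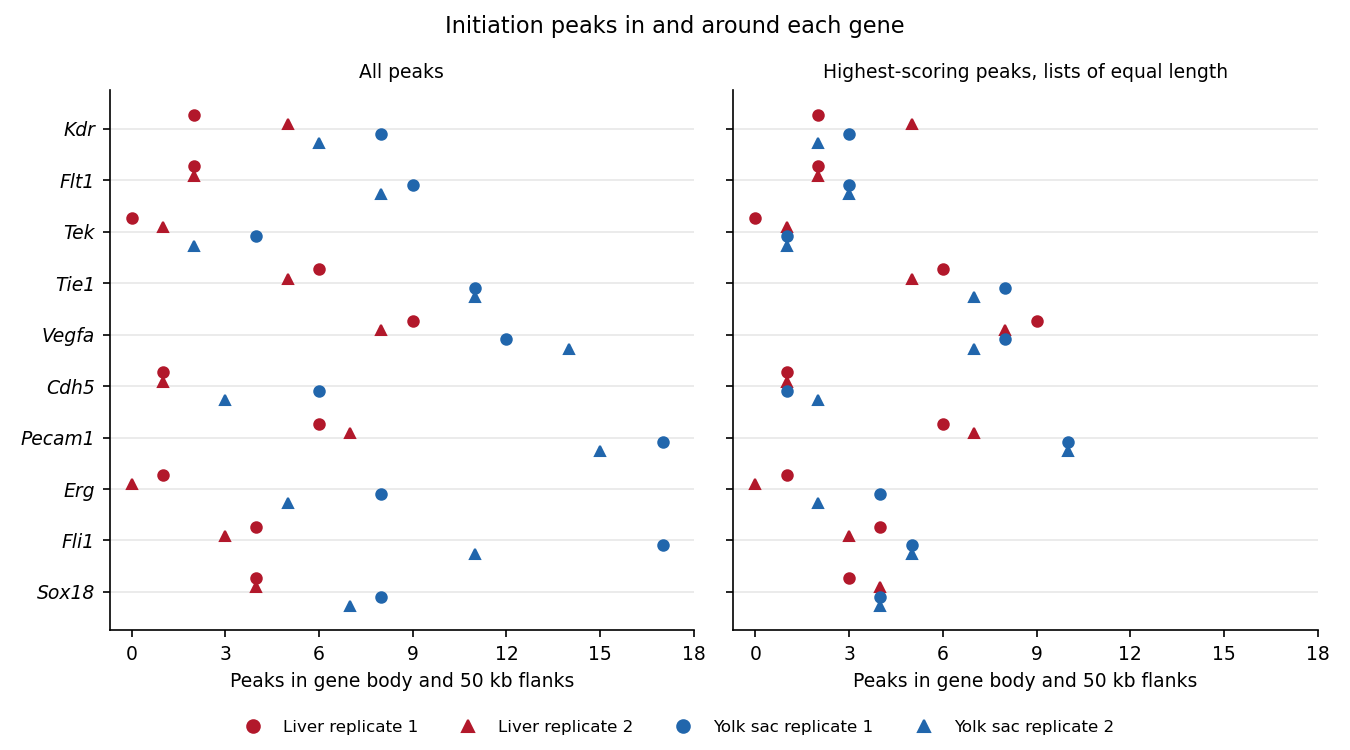
Number of peaks in the body and 50 kb flanks of each of the 10 genes in each library, with all peaks (left) and with the top 24333 peaks by score of every list (right); red symbols are liver and blue symbols yolk sac. With all peaks the yolk sac symbols lie to the right of the liver symbols at all 10 genes, and with lists of equal length at 5 of them.

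Over the 10 loci together, the liver lists held 35 and 36 peaks and the yolk sac lists 100 and 82. The means were 35.5 ± 0.707 and 91 ± 12.7 (SD, n = 2), a ratio of 2.56, or 1.36 on the log2 scale (exact permutation p = 0.33). Both yolk sac libraries exceeded both liver libraries at 10 of 10 loci, against 56.7% of the 18226 protein-coding genes with a peak in any list. The reverse held at none of the 10 and at 6.51% of all. Distal peaks, which overlap no window of 500 bp around any start of any gene, numbered 19 and 17 in liver against 77 and 60 in yolk sac, a ratio of 3.81 or 1.93 on the log2 scale. Both yolk sac libraries had more distal peaks than both liver libraries at 10 of 10 loci, against 55.7% of genes with a distal peak, and the reverse held at none of the 10 and at 7.05% of all. The yolk sac lists are longer, and dividing the counts by the number of peaks in each list brought the log2 ratios to 0.43 for all locus peaks and to 0.996 for distal peaks.

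Lists of equal length gave a smaller difference. The loci then held 34 and 36 peaks in liver against 47 and 43 in yolk sac, a ratio of 1.29 or 0.36 on the log2 scale, and 18 and 17 against 29 and 23 distal peaks, a ratio of 1.49 or 0.57 on the log2 scale. In neither case did the tissues overlap. Both yolk sac libraries exceeded both liver libraries at Flt1, Tie1, Pecam1, Erg and Fli1, which is 5 of 10, against 17.4% of all protein-coding genes with a peak. The reverse was found at none of the 10 and at 30.9% of all. For distal peaks the count was 4 of 10 (Flt1, Tie1, Pecam1 and Erg) against 19.4% of all, with the reverse at none of the 10 and at 31.2% of all. At Kdr and Vegfa the mean was higher in liver, by 1 peak each. The median log2 ratio of mean peaks plus 1 was 0.40 over the 10 genes and -0.11 over all genes, against 1.30 and 0.49 with all peaks. For distal peaks it was 0.45 over the 8 members with such a peak and -0.26 over all genes with one. With all peaks the distal medians were 1.70 over the 10 genes and 0.81 over all genes with a distal peak.

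**Figure D3:**
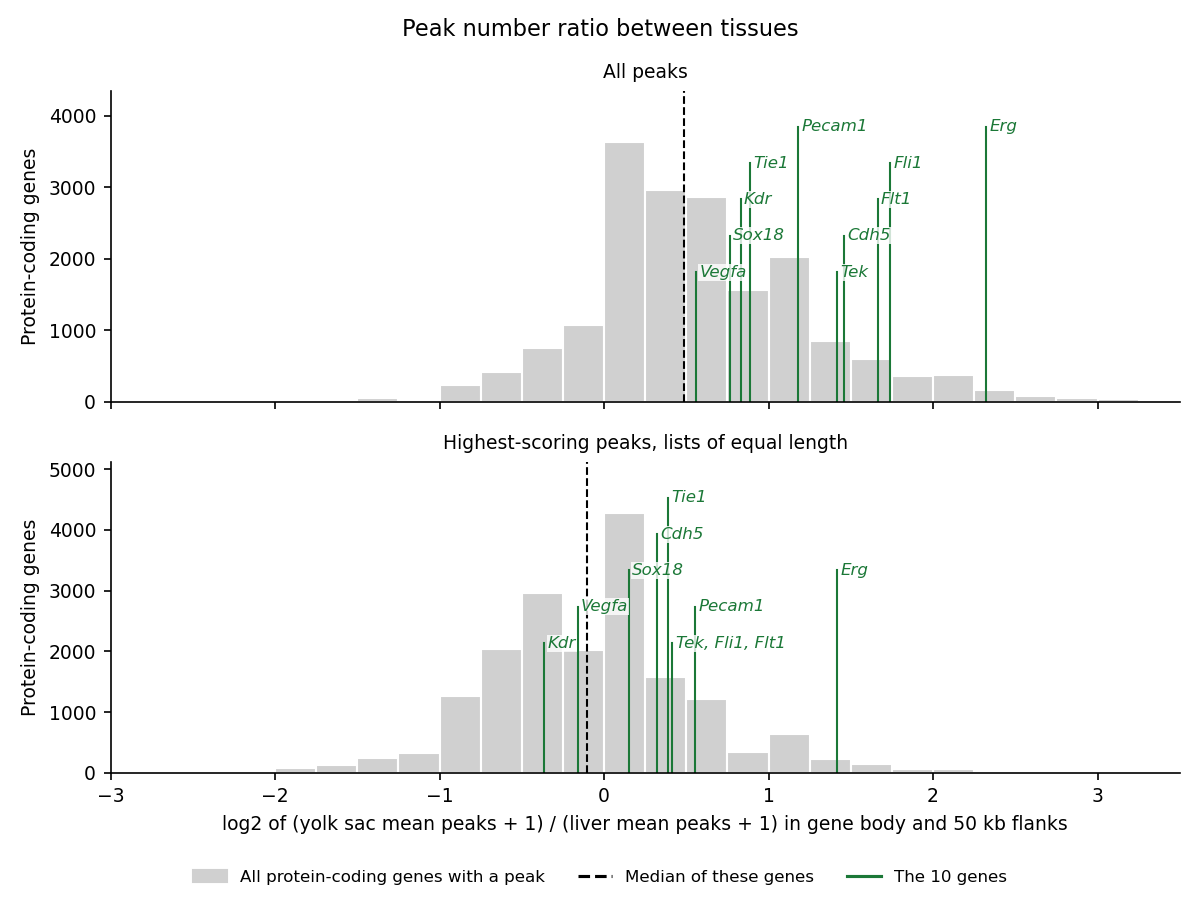
Distribution over protein-coding genes of the log2 ratio of yolk sac to liver mean peak number plus 1 (grey bars, number of genes), with the 10 genes as green lines and the median of all genes dashed, for all peaks (top) and for lists of equal length (bottom). All 10 genes lie above the median of 0.49 in the top panel and 8 of 10 above the median of -0.11 in the bottom panel, where Kdr and Vegfa lie below it.

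Merging the 4 lists gave 113 regions in the 10 loci, of which 13 lay at starts of the genes themselves, 12 at starts of neighbouring genes and 88 were distal. Of the distal regions, 37 were found in each yolk sac library and in no liver library, 2 in both liver libraries and no yolk sac library, and 11 in all 4. The yolk-sac-only share, 42.0%, is near the 40.3% of all 42751 distal regions. The liver-only share was 2.27% at these loci (the regions named at Kdr and Vegfa) and 8.01% of all distal regions. The share called in all 4 libraries was 12.5%, against 8.92% of all. A further 33 distal regions were called in 1 library only, 23 of them in yolk sac replicate 1. Of the 37 yolk-sac-only distal regions, 15 lay within the body of the gene, 19 in introns of any gene and 16 outside annotated genes. With lists of equal length, the yolk-sac-only and liver-only regions of any kind numbered 10 and 5, against 39 and 3 with all peaks. No share over all merged regions is given for these counts, also where settings are compared below. They therefore describe these loci only. The midpoint nearest to the 50 kb limit on the inside was at Fli1, 49.3 kb from the gene, and the nearest on the outside at Vegfa, at 51.9 kb.

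**Figure D4:**
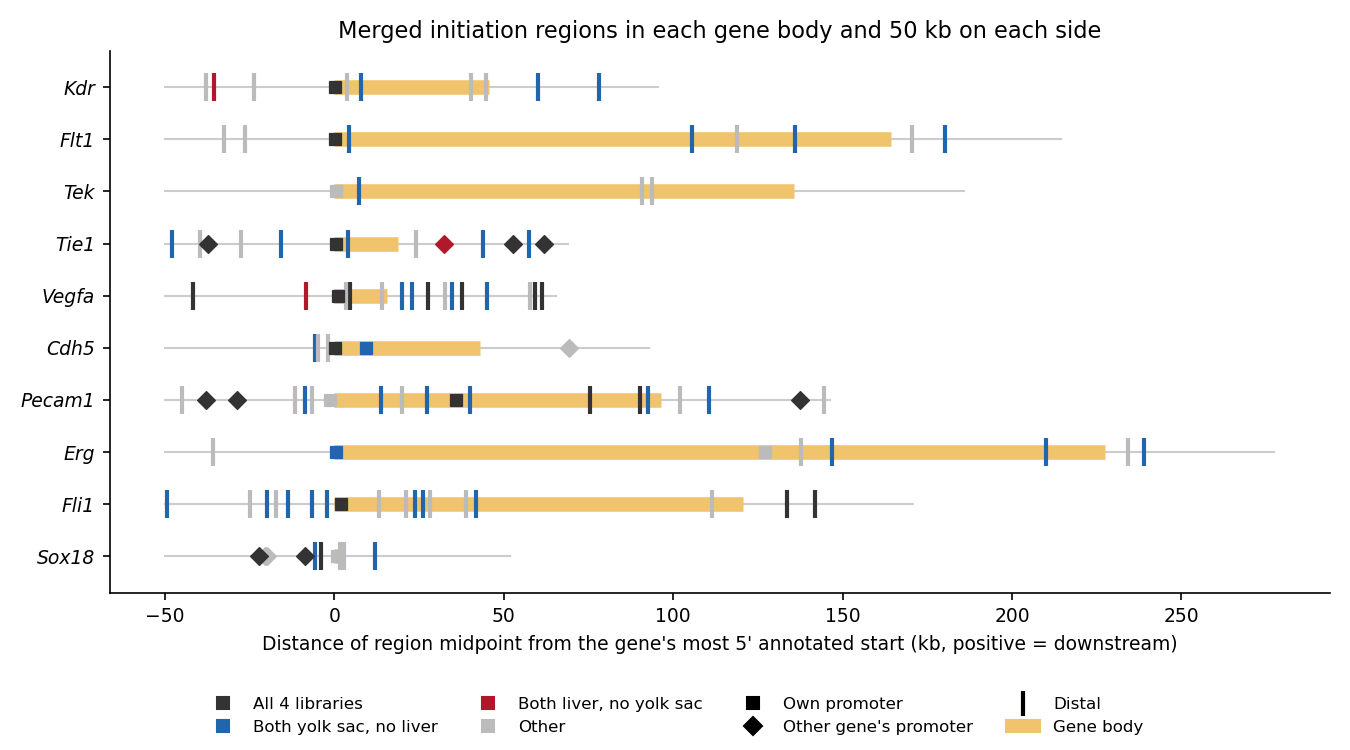
Merged initiation regions in the gene body (yellow) and 50 kb on each side of the 10 genes, by the distance of the region midpoint from the most upstream annotated start in kb; colour gives the libraries that called the region, and squares, diamonds and ticks mark own promoters, promoters of other genes and distal regions. Blue yolk-sac-only ticks occur at all 10 genes, and the 2 red ticks, called in liver only, lie upstream of Kdr and Vegfa.

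A wider list of 73 further vascular genes was examined for promoter peaks. Of these, 50 were called in all 4 libraries (68.5%, against 53.8% of all protein-coding genes). A further 9 were called in yolk sac alone (12.3%, against 5.25% of all), 1 in liver alone (against 1.01% of all) and 3 in none. The yolk-sac-only genes were the ligand genes Angpt2, Angpt4 (angiopoietins, which bind the Tek receptor), Apln and Jag2 (a Notch ligand), of 13 ligand genes. They also included Ptprb, a phosphatase of endothelial junctions, and the scavenger receptor gene Stab1, of 20 receptor genes. Among 18 adhesion and surface genes they were Emcn and Mmrn2, and among 22 transcription factor genes Foxc2. The promoter of Jag2 ranked at percentiles 90.0 and 74 of the yolk sac lists, that of Apln at 25.5 and 16.3 and that of Foxc2 at 48.6 and 10.7. The 1 liver-only gene was Vwf, the von Willebrand factor gene of endothelium and megakaryocytes, at percentiles 59.0 and 55.0 of the liver lists. In lists of equal length 3 of the 73 were yolk-sac-only (Angpt4, Jag2 and Emcn) and 3 liver-only (Vwf, Plxnd1 and Prox1), where 2.61% and 3.01% of all genes were. By number of locus peaks, 50 of the 73 were higher in both yolk sac libraries and 3 in both liver libraries, which is 68.5% and 4.11%, against 56.7% and 6.51% of all protein-coding genes with a peak. The numbers in lists of equal length were 15 and 17, or 20.5% and 23.3%, against 17.4% and 30.9%.

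The genes of the wider list whose peak numbers in the 4 libraries lay nearest to the median profile of the 10 genes were Nr2f2, Foxc2 and Adgrf5, by Euclidean distance of log2(n + 1) over the 4 libraries (0.31, 0.39 and 0.41). Nr2f2, which encodes a transcription factor of venous endothelium and mesenchyme, had 3 and 4 locus peaks in liver against 7 and 8 in yolk sac. Its promoter ranked at percentiles 14.1 and 14.2 of the liver lists against 84.2 and 82.7 of the yolk sac lists. Foxc2 had 3 and 4 locus peaks in liver against 11 and 8 in yolk sac, and Adgrf5 3 and 3 against 7 and 6.

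Markers of other cell types also differed between the lists with all peaks. Of 10 mural cell markers, 4 and 5 had promoter peaks in liver against 8 and 8 in yolk sac, of 10 mesenchymal markers 6 and 9 against 10 and 10, and of 10 macrophage markers 7 and 6 against 10 and 9. Of 10 endothelial markers, of which 5 are among the genes described here, 6 and 9 were called in liver against 10 and 10 in yolk sac. Of all protein-coding genes, 56.1% and 57.9% were called in liver against 63.8% and 62.4% in yolk sac. The liver counts of these 4 groups were the same in lists of equal length, and the yolk sac counts were 6 and 7 for mural, 10 and 10 for mesenchymal, 6 and 6 for macrophage and 9 and 9 for endothelial markers. The macrophage count was then no higher in yolk sac. The calls in these lists covered 55.9% and 57.9% of all protein-coding genes in liver against 53.2% and 56.6% in yolk sac. The part of the cell makeup of the tissues in the differences above was not tested.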

How the data were processed

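The deposited files are dREG peak lists, 1 per library, with chromosome, start, end and a score per peak. The scores are the authors' deposited values without a unit, and served only for ranks and filters inside each list. Per the submitters' processing notes the genome build was mm10, and Bowtie2 and bedtools were used. The dREG version and filters are not given in the sources used here. Genes and starts came from GENCODE M21 (GRCm38), whose coordinates are those of mm10. Positions are 1-based. Peaks overlapping a start window of 500 bp by at least 1 bp were promoter peaks, and locus counts used peak midpoints. Regions are peaks of the 4 lists merged where they overlap. Percentiles are ranks within a list. Tests were exact permutations over the 6 assignments of libraries. The functions were tested on simulated lists. Python 3.11.15, numpy 2.4.6, pandas 2.3.3 and matplotlib 3.10.9 were used.

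The alternatives were other windows, flanks and merge distances, score filters, equal list length, counts per list length, omission of single libraries and a replicate block. Named are the 10 genes, genes of the wider list called in 1 tissue only or nearest in profile, and the leading tissue-only distal region per gene. Other regions named were chosen after their values were seen. The genes and lists were chosen with earlier results of these data known.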

Additional observations from a re-analysis of the deposited data

How the results depend on the processing

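With 2 libraries per tissue no setting can give an exact permutation p below 0.33, so the settings are compared by value. The difference between the tissue means was 2 genes with a promoter peak, 1.36 (log2) for locus peaks, 1.93 (log2) for distal peaks, 1200 bp for promoter width, 20.5 percentile points, and 36 more yolk-sac-only than liver-only regions. With the higher-scoring 50% of each list these were 6 genes, 1.57, 2.84, 1775 bp and 21 regions. That setting kept 12432 and 12166 peaks in liver against 25262 and 21528 in yolk sac, so the difference in list length remained. With lists of equal length locus peaks gave 0.36, distal peaks 0.57, percentiles 2.96 and regions 5, and the difference in locus peaks turned to -1 at both Kdr and Vegfa. A flank of 25 kb gave 1.58 for locus and 2.18 for distal peaks, a flank of 100 kb gave 62 regions, and a start window of 1000 bp gave 31.7 percentile points. Counts divided by list length gave 0.43 and 0.996. Leaving out 1 library at a time gave 1 to 3 genes (1 without liver replicate 1, 3 without liver replicate 2), 1.21 to 1.49 for locus peaks, 1.74 to 2.10 for distal peaks, 951 to 1450 bp, 17.4 to 37.6 percentile points and 38 to 62 regions, the 62 without yolk sac replicate 2 and the 37.6 without liver replicate 2; a single library is then assumed to stand for its tissue. Without yolk sac replicate 1 there were 45 more yolk-sac-only than liver-only regions. A wider flank searches a greater length, and with a library left out fewer lists must agree. The width and percentile medians are over genes called in every list used, so their genes changed with some settings. Fli1 joined with the 1000 bp window and Erg without liver replicate 2. Tek, Fli1 and Sox18 joined without liver replicate 1. The part of each of these in the changes between settings was not tested. Taking the widest promoter peak per gene gave 1175 bp and only starts called in all 4 libraries 1012 bp. Both settings, and the use of lists of equal length for gene-body peaks, were chosen after seeing the data. Over these results, 39 alternative values, the block below included, stayed within the replicate spread or, for regions, within 1.5 times the main count, and 19 moved farther.

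The replicate block, which pairs libraries by number, gave 2 genes, 1.35, 1.92, 1200 bp and 20.5 percentile points (exact permutation p = 0.5, the smallest that sign changes of the 2 pairs allow). Nothing in the labels says whether libraries of equal number share a litter or day. The liver and yolk sac replicate differences had r = 0.00267 over 15689 regions, which are not independent. This value cannot decide whether the numbers mark pairs. Read depth is unknown, so a missing peak cannot be told from one below detection.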
